A study of Mus musculus with 15 samples.

Results

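The comparison described here sets RNA on tagged ribosomes of mouse cerebellum at postnatal day 7 (P7) against the same preparation on the day of birth (P0). Its arrays were taken by age from the labels, and it uses 6 of the 15 arrays of the series, 3 per age, across all 22092 probe sets, which stand for 19500 named genes. Every animal of both groups carried Tg(Pcp2-L10a-Egfp), in which the promoter of Pcp2 drives ribosomal protein L10a fused to green fluorescent protein. The groups differed in age, and no treatment or further allele is given for either. Cerebella were pooled, polysomes were held with cycloheximide, and tagged ribosomes were pulled out with beads carrying antibodies against the fluorescent protein, a method called translating ribosome affinity purification. The bound RNA was amplified and hybridised to Affymetrix arrays. Arrays of mice at P15, P21 and P56 entered the fit and are cited for what followed the first week. Unpurified cerebellar RNA and RNA from animals lacking the transgene were not analysed here, so a level below is a signal in the purified RNA and not an enrichment.

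Purkinje cells are the large inhibitory neurons that carry the output of the cerebellar cortex. In the first week after birth of a mouse they settle into a single row, begin to build the dendritic tree and receive climbing fibres from the inferior olive, while granule cells are still being born in the layer above them. In the mature cell, glutamate from parallel and climbing fibres acts through AMPA receptors and through a Gq-coupled cascade that releases calcium from stores by way of inositol trisphosphate (IP3). Large amounts of calcium-binding proteins and pumps, and fast sodium and potassium channels, go with this signalling and with steady firing.

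Arrays of an age resembled each other closely. Over probe sets, the correlation of 2 arrays was 0.9979 to 0.9982 within P0, 0.9988 to 0.9990 within P7 and 0.915 to 0.919 between the ages. Array medians were 7.91 to 7.93 at P0 and 7.85 to 7.87 at P7 on the log2 signal scale. No array stood apart in these correlations and medians. In the mean of some gene lists P7 replicate 1 did, as for myelinating oligodendrocyte genes (9.15 against 9.36 and 9.37 on the other P7 arrays). At an adjusted p under 0.05 in limma, 34.2% of genes were called higher at P7 and 27.4% called lower. At a log2 change of at least 1, a 2-fold difference, 10.8% of genes were higher and 8.69% lower. The arrays of P0 and P7 did not overlap for 71.7% of genes, so a group of genes is read here against those shares. The median change over all genes was 0.06. In what follows a change is P7 minus P0 in log2 units with its standard error (SE) from the fit, and "rose" or "fell" is used only of called genes.

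**Figure D1:**
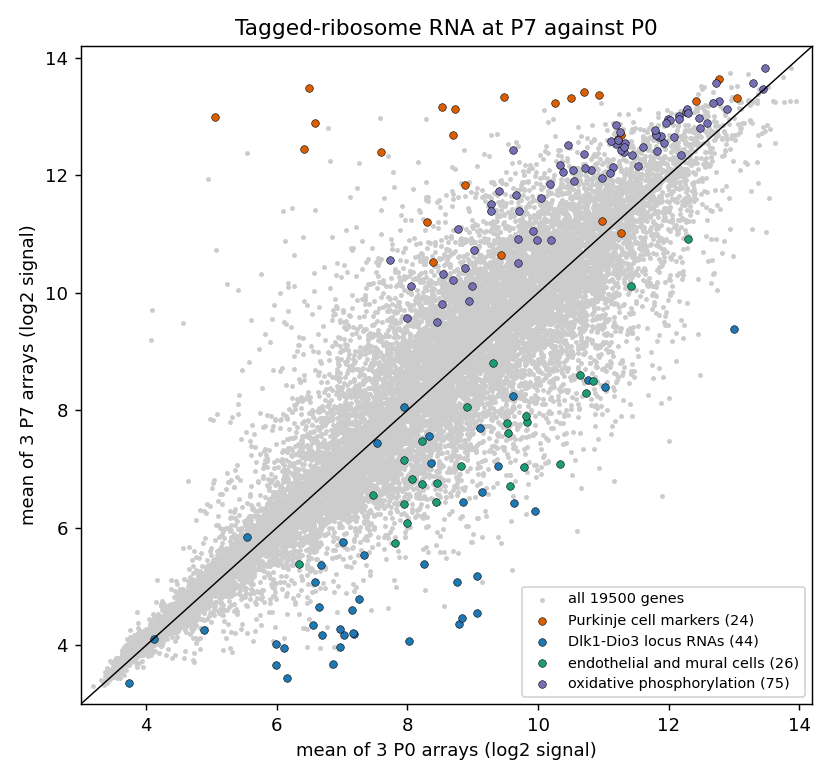
Mean log2 signal of 3 P7 arrays (vertical axis) against that of 3 P0 arrays (horizontal axis), 1 point per gene for 19500 genes, with equality drawn as a line and 4 gene groups in colour. Purkinje cell markers (24) lie above the line apart from Foxp2, oxidative phosphorylation genes (75) lie on or above it, and endothelial and mural genes (26) and most RNAs of the Dlk1-Dio3 locus (44) lie below it.

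Genes that mark Purkinje cells rose. Of 24 measured markers, 23 rose and 1 fell, and 19 rose by at least 1, with a median change of 2.86 against 0.06 for all genes. Pcp2, the Purkinje cell gene whose promoter drives the transgene, had log2 signals of 8.62, 8.49 and 8.50 at P0 and 13.18, 13.15 and 13.16 at P7. Its change was 4.63 (SE 0.06, adjusted p 2.78e-19). Rpl10a, the endogenous gene of the tagged protein, whose probe set may also read the transgene, gave 12.70, 12.71 and 12.66 at P0 and 13.06, 12.96 and 13.00 at P7, a change of 0.32 (SE 0.06, adjusted p 0.000101). For both genes the lowest P7 array lay above the highest P0 array. The amount of tagged ribosome per cell was not measured, so more capture, more Purkinje cells and more of each RNA per cell cannot be told apart here or in any result below.

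Among the strongest marker rises, Ppp1r17, a substrate of cyclic GMP-dependent kinase that inhibits protein phosphatases, read 4.94, 5.05 and 5.18 at P0 and 13.00, 12.99 and 12.98 at P7. Parvalbumin (Pvalb), a calcium buffer shared with interneurons, read 6.68, 6.41 and 6.42 at P0 and 13.49, 13.46 and 13.48 at P7. Calbindin (Calb1), a calcium buffer found in Purkinje cells from before birth, read 11.10, 10.93 and 10.75 at P0 and 13.42, 13.31 and 13.36 at P7. The ages were separated in all of these, by over 6 log2 units for Ppp1r17 and Pvalb and by 2.44 for Calb1. The glutamate transporter Slc1a6 rose by 3.99 (SE 0.08), the carbonic anhydrase-related protein Car8, which binds the IP3 receptor, by 2.71 (SE 0.08), and Rgs8, a regulator of G protein signalling, by 2.82 (SE 0.06). The smallest rises were those of Dner, a Notch ligand of the dendrite (0.85), Aldoc, the zebrin II antigen (0.88), Pcp4, a calmodulin-binding protein (0.27), and Gad2, a GABA-synthesising enzyme (0.23). The rise of Gad2 was 0.05, with an adjusted p of 0.586, after quantile normalization. Foxp2, a transcription factor of early Purkinje cells, read 11.28, 11.27 and 11.25 at P0 and 11.05, 11.01 and 11.00 at P7, a fall of −0.25 (SE 0.09, adjusted p 0.0171), and with array medians set to 0 its adjusted p was 0.0639. The P0 signals of Ppp1r17 lay under the lower quartile of every P0 array (5.93 and above), where signal cannot be told from background.

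**Figure D2:**
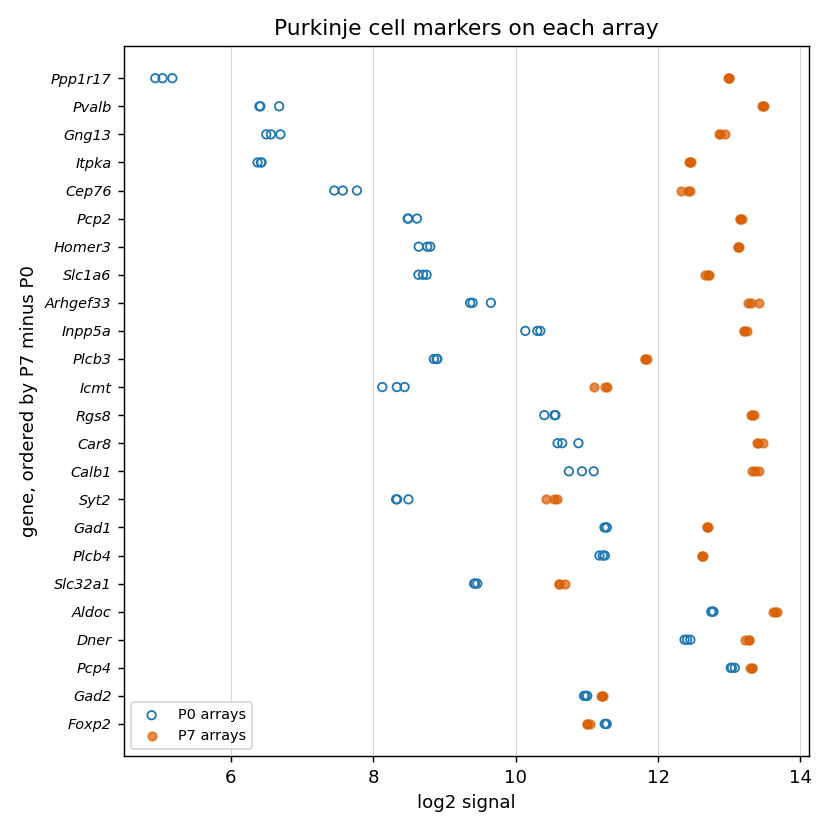
Log2 signal of the 24 measured Purkinje cell markers on each of the 3 P0 arrays (open circles) and the 3 P7 arrays (filled circles), ordered by the difference of the means. Ppp1r17, Pvalb, Gng13 and Itpka moved by over 6 log2 units, Gad2 and Pcp4 by under 0.30, and Foxp2 is the single marker that is lower at P7.

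The stretch of 250 bases before the annotated start of Pcp2 is shown because the Pcp2 promoter drives the transgene (RefSeq, GRCm38.p6, chr8:3625548-3625797, minus strand, written 5′ to 3′). Capitals mark AGGTCA or its reverse complement TGACCT, the 6-base core bound by many nuclear receptors, among them the one encoded by Rora, which is required for Purkinje cell maturation.
Pcp2: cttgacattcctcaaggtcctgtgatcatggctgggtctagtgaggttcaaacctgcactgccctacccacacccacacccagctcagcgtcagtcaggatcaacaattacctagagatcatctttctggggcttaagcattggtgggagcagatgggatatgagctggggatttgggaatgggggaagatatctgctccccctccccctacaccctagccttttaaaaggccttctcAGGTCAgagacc
The match begins 12 bases before the start. In the same window AGGTCA, on either strand, was found in 1859 of 15302 genes with a promoter entry (12.1%), in 7 of 19 Purkinje cell markers (36.8%; Arhgef33, Dner, Homer3, Pcp2, Pcp4, Plcb3 and Syt2), in 3 of 15 of the 20 largest named rises (Fgf7, Tuba8 and Uts2) and in 0 of 10 of the 20 largest named falls. These are counts of letters in a window and not of bound sites. Rora itself read 10.59, 10.62 and 10.62 at P0 and 12.82, 12.84 and 12.79 at P7, a change of 2.21 (SE 0.06, adjusted p 1.77e-15), with no overlap between the ages.

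Markers of other cells moved in the same week, and mostly downward. All 26 endothelial and mural genes fell (median −1.76), as did 27 of 29 meningeal and choroid plexus genes (median −1.46) and 18 of 21 microglial genes (median −1.27). Cdh5, the cadherin of endothelial junctions, read 10.34, 10.33 and 10.33 at P0 and 7.13, 7.07 and 7.09 at P7. C1qb, a complement chain made by microglia, read 10.13, 9.87 and 9.91 at P0 and 7.19, 6.93 and 7.07 at P7. Igfbp2, a binding protein of insulin-like growth factors strong in meninges and choroid plexus, read 10.61, 10.60 and 10.63 at P0 and 7.82, 7.97 and 7.89 at P7. In each the P7 arrays were lower by more than 2.5 log2 units and did not overlap those of P0. On the log2 scale, the summed level of the endothelial and mural list was 14.51 to 14.53 on P0 arrays and 12.82 to 12.86 on P7 arrays, that of the meningeal and choroid plexus list 15.25 to 15.29 and 13.49 to 13.61, and that of the microglial list 12.53 to 12.61 and 10.92 to 10.97. Exceptions named after their values were seen were Clic6, a choroid plexus chloride channel protein, which rose by 1.47, and Aif1, a microglial calcium-binding protein, which rose by 0.29. Of 5 measured red blood cell genes, Alas2 (−1.99) and Slc4a1 (−1.03) fell and Epb42, Hbb-y and Hbb-bh1 were not called.

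Glia divided by type. Of 31 genes of astrocytes and Bergmann glia, 22 fell and 7 rose (median −0.74). Nes, the intermediate filament of progenitors and radial glia, fell by 2.92 and Ptprz1, a phosphatase of radial glia, fell by 3.12, whereas Hopx, a homeodomain-only protein of Bergmann glia and their progenitors, rose by 3.07 from 8.59 ± 0.06 at P0 to 11.66 ± 0.02 at P7 (mean ± SD, n = 3). Oligodendrocyte precursor genes fell in 11 of 15 cases, among them the growth factor receptor Pdgfra (−1.96) and the proteoglycan Vcan (−2.17). Enpp6, which appears as precursors differentiate, rose (1.56), as did Neu4 (0.78). Myelinating oligodendrocyte genes went the other way: 18 of 20 rose, 0 fell, and the median was 1.55. Mog, a protein of the outer myelin surface, read 6.48, 5.91 and 6.02 at P0 and 9.29, 9.54 and 9.60 at P7. Mobp, a compact myelin protein, read 6.74, 6.63 and 7.09 at P0 and 9.95, 10.17 and 10.13 at P7. In both genes each P7 array was higher than any P0 array by over 2.5 log2 units. The summed level of the myelinating list was 12.59 to 12.67 at P0 and 14.11 to 14.29 at P7. Its part in the rises described here was not tested.

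Neuronal neighbours differed as well. In the list of maturing and mature granule cells 13 of 29 rose and 11 fell, with a median of 0.03 that became −0.16 after quantile normalization. Gabra6, a GABA-A receptor subunit of mature granule cells, read 5.11, 5.13 and 5.00 at P0 and 10.56, 10.83 and 10.80 at P7. Cbln3, a synaptic organiser made by granule cells, rose by 4.38, and Slc17a7, the vesicular glutamate transporter of parallel fibres, by 3.07. Meis2, a homeobox gene, fell, with signals of 12.46, 12.53 and 12.46 at P0 and 8.45, 8.69 and 8.65 at P7. Gabra6 on P0 arrays was below the lower quartile. Gabra6 and Meis2 are among the largest named rises and falls, which were picked without overlap between ages. Granule cell progenitor genes went both ways (5 rose, 7 fell and 6 of 18 were not called, median −0.10): Nhlh1 rose by 1.62 and Mycn by 0.85, Ccnd1 fell by 0.97, and Atoh1, which defines these progenitors, was not called (0.34). Interneuron genes fell in 16 of 21 cases and 3 rose (Pvalb, Prkcd and Gad1). Pvalb and Gad1 are also in the list of Purkinje cell markers, and the cells behind these rises and falls were not tested. Of 13 genes of cerebellar nuclear neurons, 10 fell and Nefh, a neurofilament chain, rose by 2.06.

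Genes listed for extracerebellar and brainstem neurons mostly fell, and 3 of them are among the 20 largest named falls. Of 38 such genes, 31 fell and 2 rose, Slc17a8 by 0.68 and Barhl2 by 0.21, with a list median of −0.94. The list is not exclusive to neurons outside the cerebellum. Of its 38 genes, 4 are also in the list of cerebellar nuclear neurons above, and Nxph1 is also in the interneuron and neuropeptide lists. Tfap2d, a transcription factor of the midbrain roof, read 10.57, 10.62 and 10.59 at P0 and 5.99, 6.05 and 5.82 at P7. Gata3, a factor of brainstem and midbrain neurons, read 10.67, 10.69 and 10.59 at P0 and 6.71, 6.75 and 6.56 at P7. Lhx9, a homeobox factor of midbrain, thalamus and early nuclear neurons, read 10.97, 10.90 and 10.94 at P0 and 6.92, 7.04 and 7.11 at P7. All P7 arrays of these genes lay more than 3.5 log2 units below the P0 arrays. The vesicular glutamate transporter Slc17a6 fell by 2.74 and the homeobox gene Otx2 of midbrain and choroid plexus fell by 2.30. Neuropeptide genes fell in 20 of 30 cases, with Tac1 at −3.11, Sst at −2.78 and Npy at −2.43, and 2 rose, Cck by 2.09 and the prohormone convertase Pcsk1 by 1.08. The summed level of the extracerebellar list was 14.54 to 14.56 at P0 and 13.12 to 13.18 at P7. Whether tissue next to the cerebellum was part of the P0 pools was not tested.

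**Figure D3:**
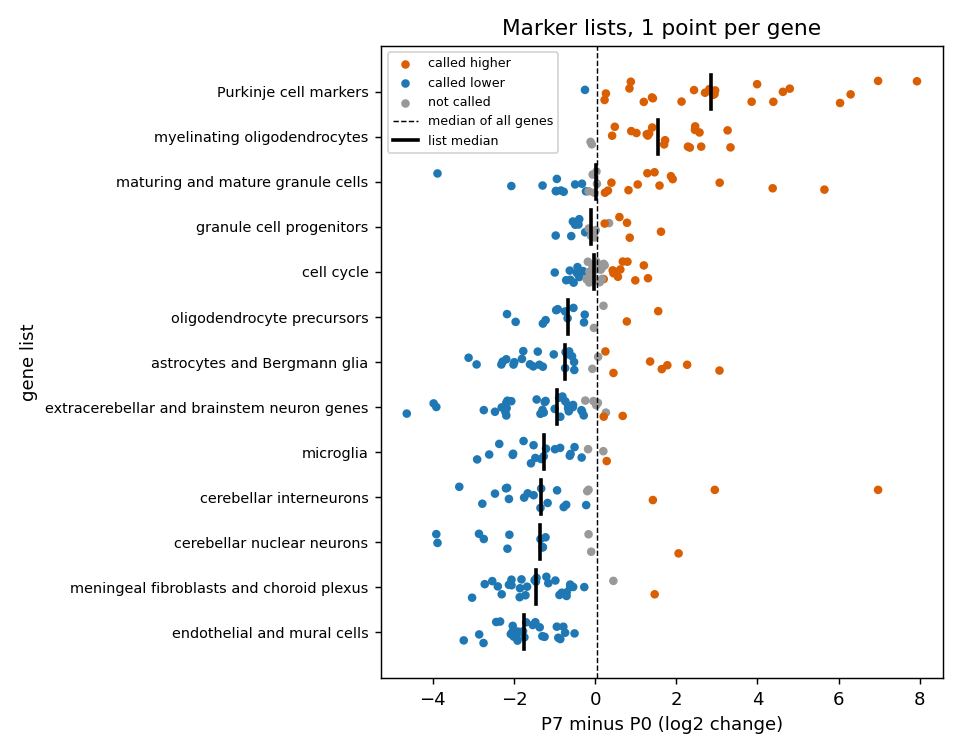
Change from P0 to P7 (log2, horizontal axis) of every measured gene of 13 marker lists, 1 point per gene, coloured by call, with the list median as a bar and the median of all genes (0.06) as a dashed line. Purkinje cell markers and myelinating oligodendrocyte genes lie to the right, granule cell and cell cycle lists straddle the dashed line, and all 26 endothelial and mural genes lie to the left.

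Genes of the Gq and IP3 cascade rose together. Of 36 measured, 27 rose, 7 fell and 2 were not called. The median was 1.23, and 9 of the 36 are also among the markers above. Plcb4 and Plcb3, the phospholipases that make IP3, rose by 1.40 (SE 0.06, adjusted p 1.38e-12) and 2.94 (SE 0.06, adjusted p 7.11e-17). Itpka, the kinase that turns IP3 into inositol tetrakisphosphate, read 6.43, 6.38 and 6.43 at P0 and 12.43, 12.45 and 12.47 at P7. Inpp5a, the phosphatase that removes IP3, read 10.35, 10.31 and 10.14 at P0 and 13.25, 13.21 and 13.21 at P7. Gng13, a G protein gamma subunit, read 6.70, 6.57 and 6.50 at P0 and 12.94, 12.86 and 12.86 at P7. In Itpka, Inpp5a and Gng13 all P7 arrays lay above all P0 arrays, with gaps of over 2.5 log2 units. Homer3, the scaffold that ties metabotropic receptors to the IP3 receptor, rose by 4.39, and Pde5a, a cyclic GMP phosphodiesterase, by 3.61. The 7 members that fell, named after their values were seen, were Gng4 (−2.16), Rgs17 (−1.50), Itpr2 (−0.91), Gng7 (−0.64), Itpr3 (−0.46), Homer2 (−0.45) and Gucy1a1 (−0.29).

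Calcium handling genes were divided. Of 35, 20 rose and 14 fell (median 0.29). Atp2a3, the calcium pump of the endoplasmic reticulum found in Purkinje cells, read 6.82, 6.76 and 6.86 at P0 and 12.12, 12.30 and 12.31 at P7. Ocm, encoding oncomodulin, a relative of parvalbumin, rose by 3.25 from P0 signals under the lower quartile. Ryr3, a ryanodine receptor, fell, with signals of 8.89, 8.77 and 8.92 at P0 and 6.61, 6.68 and 6.67 at P7. Voltage-gated calcium channel genes gave 7 rises and 9 falls among 16. Cacna1g, the T-type channel of Purkinje cells, rose by 1.89 (SE 0.07, adjusted p 7.01e-14), and another T-type channel, Cacna1h, fell by 3.04 (SE 0.08, adjusted p 3.95e-15). Cacna1h read 10.30, 10.08 and 10.09 at P0 and 7.10, 7.07 and 7.19 at P7, so the order of the ages in these 2 relatives was opposite. The auxiliary subunit Cacnb4 rose by 1.80, while the N-type channel Cacna1b fell by 1.74 and the auxiliary subunit Cacna2d1 fell by 2.41.

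Sodium channel genes moved in both directions. Scn4b, the beta subunit linked to the resurgent sodium current of Purkinje cells, read 5.65, 5.62 and 6.04 at P0 and 10.16, 10.39 and 10.40 at P7. Scn3b, another beta subunit, read 12.42, 12.47 and 12.44 at P0 and 9.29, 9.34 and 9.26 at P7. Scn3a, the alpha subunit of immature neurons, changed by −3.47 (SE 0.11, adjusted p 2.59e-14). Scn4b was thus higher on each P7 array, with P0 arrays around or below the lower quartile, and Scn3b and Scn3a were lower on each. The beta subunit Scn2b rose by 3.18, and Scn9a fell by 3.22 to a P7 level below the lower quartile. Of 12 genes 5 rose, with Scn1a (0.80), Scn8a (0.73) and the channel regulator Fgf12 (0.53) completing them, and 6 fell, so that the median of −0.26 turned to 0.28 when the dimmest probe sets were left out. Among 40 potassium and HCN channel genes 19 rose and 15 fell. Kcng4, a modulatory subunit, read 6.34, 5.87 and 6.07 at P0 and 11.27, 11.48 and 11.43 at P7. Kcna1, a low-threshold channel, rose by 2.98, its partner Kcnab1 by 4.06 and the G protein-gated channel Kcnj9 by 2.06. Kcnk9, a leak channel typical of granule cells, fell by 2.06.

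Receptors for transmitters mostly fell. For GABA-A and glycine receptors, 11 of 19 genes fell and 5 rose (median −0.78, or −0.38 when the dimmest probe sets were left out). Gabra5, an alpha subunit of extrasynaptic receptors, read 11.89, 11.88 and 11.87 at P0 and 8.06, 8.11 and 8.19 at P7. Glra2, the fetal glycine receptor subunit, read 11.30, 11.33 and 11.29 at P0 and 8.20, 8.22 and 8.11 at P7. Both were lower on every P7 array, as were Gabrg3 (−3.40) and Gabrg1 (−3.24). The 5 rises were Gabra6 and Gabrd (2.35), both known from granule cells, the beta subunit Glrb (1.01), Glra4 (0.21) and the anchor Gphn (0.20). In the list of GABA synthesis, GABA transport, GABA-B receptors and chloride balance, 8 of 16 genes rose and 6 fell (median 0.18). Gad1, which makes GABA, read 11.28, 11.27 and 11.25 at P0 and 12.69, 12.69 and 12.70 at P7, and Slc32a1, which loads it into vesicles, rose by 1.20 (SE 0.07, adjusted p 1.44e-10). The GABA transporters Slc6a11 and Slc6a13, known from astrocytes and meninges, changed by −2.69 and −3.03. The chloride exporter Slc12a5 rose by 0.35 and the chloride importer Slc12a2 fell by 0.88, a pair picked after their values were seen. The other falls were those of Clcn2, a chloride channel (−1.51), Kctd16, an auxiliary subunit of GABA-B receptors (−1.76), and the potassium-chloride cotransporter Slc12a7 (−0.79), and the other rises were those of Gad2, Abat, which breaks down GABA (0.99), the GABA-B receptor subunits Gabbr2 (0.70) and Gabbr1 (0.34) and the bicarbonate transporter Slc4a10 (0.55).

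Of 13 NMDA and kainate receptor genes 8 fell and 3 rose (median −1.08). Grin2b, the NMDA receptor subunit of immature neurons, read 10.97, 11.11 and 11.03 at P0 and 8.39, 8.26 and 8.31 at P7. Grin3a, a modulatory NMDA subunit, fell by 2.58 and the kainate receptor subunit Grik2 fell by 2.13. The 3 that rose were Grin2c, known from granule cells (1.29), Grik1 (0.61) and Grik4 (0.29). Metabotropic receptors fell in 5 of 7 cases. Grm5 read 12.00, 11.94 and 12.00 at P0 and 9.44, 9.44 and 9.50 at P7, the others that fell were Grm3 (−2.66), Grm8 (−2.16), Grm2 (−1.51) and Grm7 (−0.40), and Grm4, known from granule cells, rose by 1.25. The AMPA receptor list had 6 rises and 10 falls among 20. Shisa6, an auxiliary subunit, rose by 2.40 (SE 0.07, adjusted p 9.6e-15) and Nptx1, a secreted pentraxin that gathers AMPA receptors, by 3.10 (SE 0.08, adjusted p 1.94e-15), while the auxiliary subunits Cacng3 and Cacng4 changed by −2.68 and −1.84.

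At the parallel and climbing fibre synapse, 27 of 43 organiser genes fell and 11 rose (median −0.61). Grid2ip, a scaffold protein of Purkinje cell spines, read 7.18, 7.21 and 7.31 at P0 and 11.77, 11.78 and 11.79 at P7. Cbln2, a relative of the granule cell organiser Cbln1, read 10.51, 10.52 and 10.51 at P0 and 6.81, 6.99 and 6.93 at P7, while Cbln1 was not called (0.05). No P0 array of either named organiser came near the P7 arrays. The postsynaptic scaffold Lrrc7 fell by 2.71. Vesicle release genes gave 14 rises and 20 falls among 42. The calcium sensor Syt2 read 8.34, 8.32 and 8.50 at P0 and 10.43, 10.54 and 10.58 at P7, and Doc2b, a calcium sensor for spontaneous release, rose by 2.38 (SE 0.06, adjusted p 1.77e-15), whereas its relative Doc2a fell by 1.89 (SE 0.09). The active zone protein Pclo fell by 2.01 and Rab3b, a vesicle GTPase, fell by 1.98.

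Most genes of axon guidance fell. In the netrin, Slit and repulsive guidance list 17 of 20 fell (median −1.09), and Unc5b (1.00) and Ntn4 (0.61) rose. Among semaphorins, plexins and neuropilins 22 of 29 fell (median −1.17), and among Eph receptors and ephrins 14 of 20 (median −0.61). Of ligands, Slit1 read 10.46, 10.48 and 10.57 at P0 and 7.21, 7.31 and 7.37 at P7, and Sema3c (−2.89), Efnb3 (−2.26) and Efna2 (−1.52) fell. Of receptors, Robo1, which binds Slit proteins, read 12.11, 12.07 and 12.16 at P0 and 8.81, 8.84 and 8.84 at P7. Dcc, the netrin receptor, read 11.34, 11.46 and 11.39 at P0 and 8.52, 8.48 and 8.37 at P7. Nrp1, a coreceptor of class 3 semaphorins, read 10.03, 10.30 and 9.99 at P0 and 7.11, 7.12 and 7.05 at P7. The ages did not overlap for any of these receptors, with all P7 arrays lower by 2.5 log2 units or more. The repulsive guidance molecule Rgma (−2.30), its receptor Neo1 (−2.03), the semaphorin receptor Plxna3 (−2.49) and the ephrin receptor Ephb1 (−1.85) fell as well. The semaphorins that rose were Sema7a (1.79), Sema3a (1.08), Sema4g (0.53) and Sema6b (0.35), with the receptor Plxnb3 (0.42), all named after their values were seen. Sema7a and Sema3a are known as Purkinje cell signals to climbing fibres.

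Of 50 genes of growth cones and the neurite cytoskeleton, 35 fell and 7 rose (median −0.57). Gap43, the growth cone protein, read 12.43, 12.45 and 12.45 at P0 and 10.34, 10.19 and 10.18 at P7. Cd24a, a surface protein of immature neurons, fell by 2.36, and the adhesion molecule Chl1 (−2.29) and the kinesin Kif21b (−2.12) fell too. The rises included Nefh (2.06) and the tubulin Tuba4a (1.72), picked after their values were seen, and Tuba8, an alpha tubulin outside the list, read 7.49, 7.73 and 7.54 at P0 and 12.98, 12.97 and 12.96 at P7, a change of 5.39 (SE 0.07, adjusted p 2.61e-19). In Gap43 all P7 arrays were lower and in Tuba8 all were higher than any P0 array. In the matrix around neurons, Hapln4, a link protein of perineuronal nets, rose by 4.54 (SE 0.09, adjusted p 5.81e-17), and the proteoglycans Cspg5 and Ncan changed by −2.65 and −2.11. Of 15 matrix genes 9 fell and 3 rose, the other 2 being Hapln2 (0.76) and Has1 (0.61).

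Nearly all measured genes of oxidative phosphorylation and of mitochondrial ribosomal proteins rose. Oxidative phosphorylation was represented by 75 genes, of which 74 rose and 0 fell, and Atp5b was not called (0.02). The median of these genes was 1.06. Of 73 genes of mitochondrial ribosomal proteins 71 rose, 0 fell and Mrpl22 (0.36) and Mrpl1 (−0.10) were not called, with a median of 1.32. Ndufa1, a subunit of complex I, read 7.84, 7.81 and 7.57 at P0 and 10.62, 10.55 and 10.51 at P7. Uqcr11, a subunit of complex III, read 9.63, 9.58 and 9.63 at P0 and 12.43, 12.42 and 12.44 at P7. Mrpl20, of the large mitochondrial ribosomal subunit, read 8.53, 8.78 and 8.80 at P0 and 11.64, 11.57 and 11.57 at P7. In all of these genes the P7 arrays lay well above those of P0, and 39 respiratory and 50 mitochondrial ribosomal genes rose by at least 1. Measured genes of cytosolic ribosomal proteins moved less: 20 of 39 rose, 7 fell and the median was 0.18, between −1.80 for Rpl12 and 1.11 for Rps19. These 39 were out of 77 listed, whereas 73 of 76 listed mitochondrial ribosomal genes were measured. Near-identical pseudogenes exist for many genes of these lists, and a probe can read both. Of 19 cholesterol synthesis genes 12 fell, led by Cyp51 (−1.46), and 4 rose: Pmvk (1.63), Stard4 (0.90), Ebp (0.89) and Mvd (0.57).

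The Dlk1-Dio3 locus of chromosome 12 is an imprinted stretch with the protein genes Dlk1 and Dio3 at its ends and, between them, the long noncoding RNAs Meg3 and Rian and a large cluster of microRNAs made from the maternal copy. Of 44 measured RNAs of the list, 42 of them inside the stretch, 40 fell, 1 rose and 3 were not called, with a median change of −2.44. Meg3 read 13.00, 13.05 and 12.95 at P0 and 9.30, 9.39 and 9.44 at P7. Rian read 9.09, 9.05 and 9.04 at P0 and 5.15, 5.13 and 5.28 at P7. Both were lower on every P7 array by over 3.5 log2 units, and Rian ended below the lower quartile of the P7 arrays (5.88 to 5.91). Of 38 microRNA genes inside the stretch, 36 fell, 0 rose, and Mir666 (0.11) and Mir299a (−0.02) were not called (median −2.50). On P7 arrays 27 of the 38 lay below the lower quartile, so the depth of their fall is uncertain. Dlk1 itself fell by 2.25, and Dio3, which inactivates thyroid hormone, rose by 0.31 (SE 0.10, adjusted p 0.0109). Among 248 microRNA genes elsewhere 121 fell and 7 rose (median −0.22). Already on P0 arrays 148 of these 248 lay below the lower quartile, against 3 of the 38 inside the stretch, so most of them had little room to fall and both medians cannot be compared. The split into genes inside and outside the stretch was made after values were seen.

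The 8 microRNA genes among the 20 largest named falls are shown by their mature products, because each stands for a set of target sites given by its seed (bases 2 to 8 in capitals, RefSeq, GRCm38.p6, plus strand). The first 6 lie in the Dlk1-Dio3 stretch.
mmu-miR-377-5p (chr12:109740515-109740536): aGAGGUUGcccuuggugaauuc
mmu-miR-377-3p (chr12:109740553-109740574): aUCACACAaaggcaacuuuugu
mmu-miR-300-5p (chr12:109724318-109724339): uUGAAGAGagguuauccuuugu
mmu-miR-300-3p (chr12:109724363-109724384): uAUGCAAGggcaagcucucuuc
mmu-miR-382-5p (chr12:109733781-109733802): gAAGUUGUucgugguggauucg
mmu-miR-382-3p (chr12:109733819-109733840): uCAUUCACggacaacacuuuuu
mmu-miR-380-5p (chr12:109711806-109711827): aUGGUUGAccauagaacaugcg
mmu-miR-380-3p (chr12:109711842-109711863): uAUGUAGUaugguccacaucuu
mmu-miR-329-5p (chr12:109713503-109713524): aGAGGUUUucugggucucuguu
mmu-miR-329-3p (chr12:109713541-109713562): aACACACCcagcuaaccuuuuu
mmu-miR-665-5p (chr12:109586331-109586356): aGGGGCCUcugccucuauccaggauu
mmu-miR-665-3p (chr12:109586368-109586387): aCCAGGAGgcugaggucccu
mmu-miR-181b-5p (chr1:137966650-137966673): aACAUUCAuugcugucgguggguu
mmu-miR-181b-1-3p (chr1:137966690-137966710): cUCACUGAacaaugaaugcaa
mmu-miR-99a-5p (chr16:77598940-77598961): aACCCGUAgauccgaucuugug
mmu-miR-99a-3p (chr16:77598977-77598997): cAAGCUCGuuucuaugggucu
No seed was shared between these sequences. The arrays do not tell precursor from mature RNA, and a microRNA precursor is not itself a translated RNA. Mir377 read 9.20, 9.03 and 8.96 at P0 and 4.56, 4.47 and 4.60 at P7. Mir300 read 8.81, 8.94 and 8.63 at P0 and 4.45, 4.34 and 4.30 at P7. Mir382 read 8.97, 8.83 and 8.69 at P0 and 4.46, 4.57 and 4.39 at P7. In these 3 genes the P0 arrays were bright and the P7 arrays dim, with changes of −4.52, −4.43 and −4.36. Mir380 changed by −3.96, Mir329 by −3.69 and Mir665 by −3.67. Outside the stretch, Mir181b-1 on chromosome 1 read 9.62, 9.62 and 9.57 at P0 and 5.51, 5.17 and 5.15 at P7, and Mir99a on chromosome 16 changed by −3.89 (SE 0.12, adjusted p 1e-14).

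**Figure D4:**
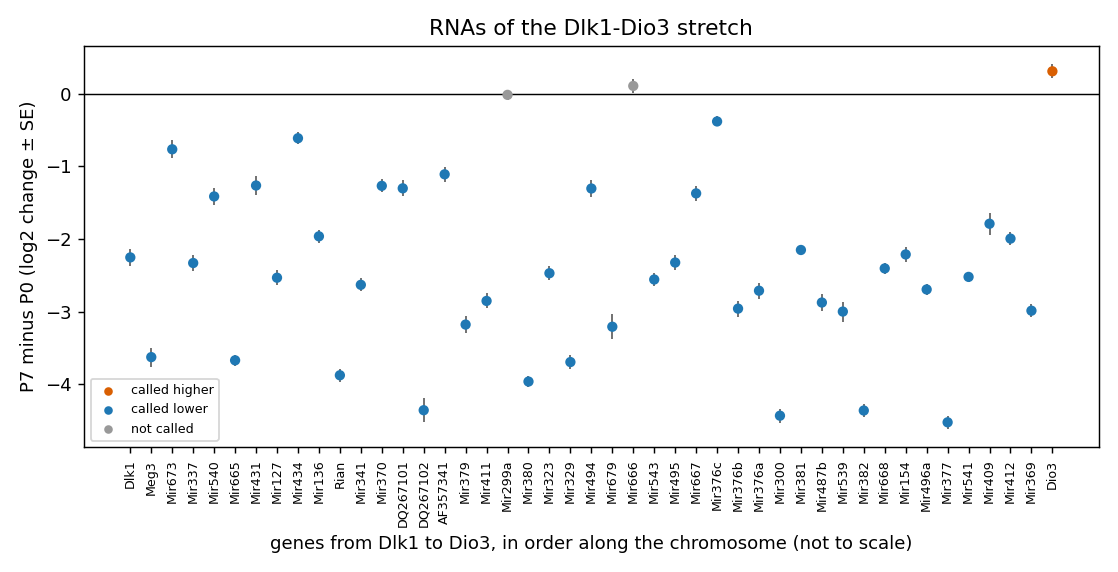
Change from P0 to P7 (log2, with the SE of the fit as bars) of 45 RNAs in their order along chromosome 12 from Dlk1 to Dio3, not to scale. Nearly all lie below 0 along the whole stretch, Mir299a and Mir666 lie near 0, and Dio3 at the far end is above it.

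Imprinted genes at other loci fell too, in 22 of 29 cases (median −0.86), and Phlda2 (0.65) and Trappc9 (0.44) rose. Mest, a hydrolase of embryonic growth expressed from the paternal copy, read 12.22, 12.28 and 12.16 at P0 and 9.23, 9.21 and 9.26 at P7. Zfp57, which keeps imprints methylated, read 12.08, 12.04 and 12.03 at P0 and 9.27, 9.07 and 9.17 at P7. Nnat, a paternal gene of immature neurons, fell by 2.47. Both ages formed separate blocks in Mest and Zfp57.

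Xist, the RNA that coats the inactive X chromosome in the nucleus, had the lowest change of the 19500 genes and read 11.88, 11.86 and 11.92 at P0 and 6.56, 6.47 and 6.61 at P7. The change was −5.35 (SE 0.11, adjusted p 9.53e-17), with all P7 arrays far below those of P0. Among Y-linked genes, Kdm5d read 8.76, 8.65 and 8.72 at P0 and 7.53, 7.51 and 7.48 at P7, a change of −1.20 (SE 0.08, adjusted p 2.01e-10), and Eif2s3y changed by −1.04 (SE 0.09, adjusted p 2.23e-08), while Uty was not called (0.13) and Usp9y, Zfy1, Zfy2 and Uba1y lay below the lower quartile at both ages. Of their X-linked partners Ddx3x fell by 0.69, Kdm5c rose by 0.27 and Eif2s3x (−0.02) and Kdm6a (−0.13) were not called. After quantile normalization Kdm5c gave 0.14 with an adjusted p of 0.08 and Eif2s3x gave −0.22 with an adjusted p of 0.0162. The sex of the animals in each pool is not in the labels, and its part in these changes was not tested.

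Transcription factors listed for Purkinje cells rose in 15 and fell in 17 of 36 cases, with a median of −0.04 that became 0.02 with array medians set to 0. Hes3, a repressor of the Hes family, read 6.01, 6.38 and 6.33 at P0 and 11.36, 11.47 and 11.48 at P7. Zfp385c, a zinc finger gene, rose by 4.01 (SE 0.08, adjusted p 1.12e-16). Esrrb, an orphan nuclear receptor, read 7.44, 7.36 and 7.28 at P0 and 10.63, 10.47 and 10.45 at P7 and was at 8.87 ± 0.19 at P15, and Klf9, a target of thyroid hormone, rose by 2.77 (SE 0.08, adjusted p 3.78e-15). Tfap2b, which marks early inhibitory progenitors and interneurons, fell, with signals of 11.92, 11.94 and 11.88 at P0 and 8.53, 8.57 and 8.60 at P7. The ages did not overlap in any of these factors. In the list of 15 thyroid hormone response genes 8 rose, with Pcp2, Klf9 and Rora in front, and 3 fell: Slco1c1, a hormone transporter of brain vessels (−2.75), Rxrg (−1.73) and Thra (−0.20).

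The remaining named genes among the 20 largest rises come from several functional classes. Smpx, a small muscle protein, read 5.11, 4.77 and 4.99 at P0 and 11.95, 11.94 and 11.90 at P7. Car7, a cytosolic carbonic anhydrase, read 6.77, 6.71 and 6.88 at P0 and 12.79, 12.79 and 12.82 at P7. Fgf7, a secreted growth factor, read 5.67, 5.08 and 5.88 at P0 and 12.36, 12.41 and 12.38 at P7. In each the gap between ages exceeded 5.5 log2 units. Sycp1, known from the meiotic synaptonemal complex, changed by 5.61 (SE 0.17, adjusted p 8.93e-15), the kinase Stk17b by 4.95 (SE 0.08, adjusted p 1.06e-17) and the actin-binding protein Nexn by 4.90 (SE 0.11, adjusted p 5.03e-16). Atp6ap1l changed by 5.11, Gtsf2 by 4.92, Plekhd1 by 4.83, Cep76, a centrosomal protein counted among the Purkinje cell markers above, by 4.80, and Uts2, the peptide urotensin 2, by 4.76. On P0 arrays 8 of the 20 genes (Ppp1r17, Smpx, Fgf7, Gabra6, Sycp1, Atp6ap1l, Gtsf2 and Nexn) lay under the lower quartile, so how far they rose is uncertain. Among the 20 largest falls not yet described, Tcf7l2, a Wnt effector strong in thalamus and midbrain, read 11.97, 12.05 and 12.01 at P0 and 8.20, 8.22 and 8.21 at P7. Bnc2, a zinc finger protein of mesenchymal cells, changed by −3.58 (SE 0.09, adjusted p 2.08e-15), and Snord82, a small nucleolar RNA, by −4.07 (SE 0.20, adjusted p 7.51e-12). The P0 arrays of Tcf7l2 were all higher, by over 3.5 log2 units. On P7 arrays 9 of the 20 largest falls (Mir377, Mir300, Mir382, Mir380, Mir329, Mir181b-1, Mir99a, Rian and Snord82) lay under the lower quartile, so how far they fell is uncertain too.

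What followed the first week is given from comparisons that share the P7 arrays. From P7 to P15, 10.5% of genes were called higher and 13.8% lower; of the 20 largest rises 10 went higher again and 0 lower, and of the 20 largest falls 3 went higher and 1 lower. From P7 to P56, 24.6% of genes were called higher and 34.9% lower, and of the 20 largest rises 11 were higher and 4 lower at P56, and of the 20 largest falls 5 were higher and 9 lower. Pvalb was at 13.48 ± 0.02 on P7 arrays and 13.74 ± 0.05 at P56 (mean ± SD, n = 3). Uts2 went from 10.89 ± 0.10 at P7 to 7.52 ± 0.30 at P56 and Gtsf2 from 9.49 ± 0.05 to 7.24 ± 0.25, so both were lower in the adult than at P7. The adult level of Gtsf2 was still above its P0 mean of 4.56, with P56 minus P0 at 2.68. The mean log2 level of the 24 Purkinje cell markers was 9.50 at P0, 12.57 at P7, 12.63 at P15 and 12.69 at P56. The highest signal on any array was 14.08, and several markers, among them Pcp2, Pvalb and Calb1, were above 13 at P7, so whether they had room to rise further was not tested. The mean level of the Dlk1-Dio3 list went from 7.73 to 5.45 and was 5.57 at P56, but 30 of its 44 members lay below the lower quartile at P7, where a later fall would not show. Meg3, which stayed above it, was at 9.38 ± 0.07 at P7, 10.19 ± 0.02 at P15 and 8.64 ± 0.38 at P56. Myelinating oligodendrocyte genes went from 7.66 to 9.29, reached 10.15 at P21 and stood at 9.24 at P56.

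**Figure D5:**
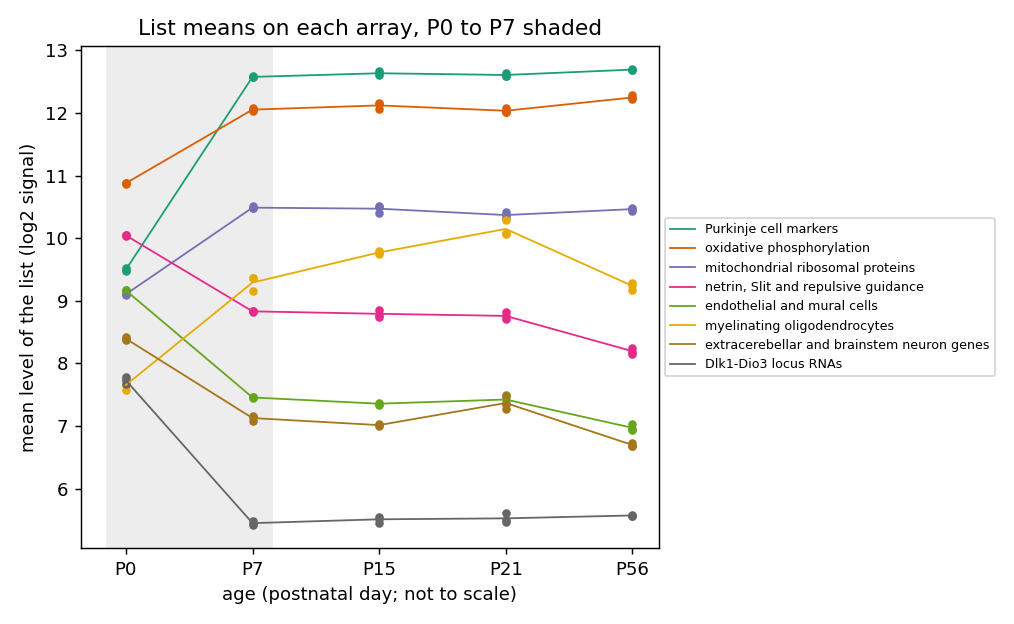
Mean log2 signal of 8 gene lists on each of the 15 arrays (points) and by age (lines) at P0, P7, P15, P21 and P56, with the first week shaded and ages not to scale. Purkinje cell markers and mitochondrial lists rise and the Dlk1-Dio3 and endothelial lists fall within the shaded step and differ little between P7 and P15, whereas the myelinating list goes on rising to P21.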

How the data were processed

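RNA on tagged ribosomes was measured on 15 arrays, 3 per age. The deposited values are log2 signals for each probe set, which the authors had normalized and summarised. Affymetrix Power Tools is named in the submitters' processing notes; its algorithm, its background correction and the log base are each not given in the sources used here, and the base was taken as 2 from the range (3.15 to 14.08). No value was changed before testing, and 0 columns lay outside the 15 arrays.

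The platform annotation of 2016 gave 1 symbol to 20996 of 22092 probe sets, several to 91, and did not list 1005. The probe set with the highest mean stood for its gene (19500 genes). P7 minus P0 was tested with limma 3.58.1 in R 4.3.3 on all 15 arrays (a mean per age, 10 residual degrees of freedom plus 6.5 prior), two-sided, with Benjamini-Hochberg adjustment over all probe sets and calls at an adjusted p under 0.05. An exact permutation test of 3 against 3 cannot give a p below 0.1, so each p comes from the spread that limma pools. Whether arrays of 1 age are separate pools of mice is not stated; if they are not, p-values reflect technical spread alone. No batch is given, so batch and age cannot be told apart.

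The comparison and the 46 gene lists (1182 genes) were chosen with earlier results of these data known, and lists are described by counts and medians with no test. Summed levels are the log2 of the sum of unlogged signals of a list. Named genes were the 20 largest rises and falls among called genes with separate arrays, from each list up to 5 called members by size of change, all Purkinje cell markers and sex chromosome genes, Pcp2, Rpl10a and up to 12 RNAs of the Dlk1-Dio3 locus. Predicted genes, unnamed transcripts and olfactory, vomeronasal and taste receptors were passed over, and genes named outside this rule were chosen after their values were seen. In simulated data that had the arrays' own spread, the test called 16% of 50 genes changed by 0.25, 72% at 0.5 and 100% at 1, with 5 false calls among 21892. The share of genes changed there was far smaller than the share called in the real arrays, so these rates need not carry over. Sequences are from RefSeq (GRCm38.p6). Alternatives are given in the closing section. Figures used matplotlib 3.10.9 in Python 3.11.15.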

Additional observations from a re-analysis of the deposited data

How the results depend on the processing

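The alternatives were a replicate block, array weights, another prior (trended, robust), quantile normalization, medians of arrays set to 0, the 6 arrays alone, removal of the dimmer 50% of probe sets, averaging the probe sets of each gene, and leaving out each of the 6 arrays. Of the comparisons of 248 named genes over these 14 settings, 3405 kept direction and call, 63 had no value because the gene was among the dimmer probe sets removed, and 4 changed call: Gad2, Kdm5c and Eif2s3x under quantile normalization and Foxp2 with array medians set to 0, as given above. The main counts were 7420 probe sets higher and 6294 lower, and 2329 and 2043 by at least 1. With the dimmer probe sets removed 11046 were tested, and 3532 were lower, 1126 of them by at least 1. A minimum change of 2 left 495 higher and 567 lower. Leaving out 1 array gave 6891 to 7158 higher, 5931 to 6085 lower, 2292 to 2355 higher by at least 1 and 2035 to 2070 lower by at least 1. Array medians set to 0 moved the median change over probe sets from 0.05 to 0.11. The replicate block gave 7410 higher and 6284 lower (2329 and 2043 by at least 1) and changed no call of a named gene; correlations of deviations between arrays of equal number (0.006, 0.005 and 0.118) do not show that the numbers pair the samples.

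Of 642 medians of the 46 lists over these settings, 458 moved by no more than the spread between replicates, 172 moved further without changing sign (0.059 log2 units in the median, 0.956 at most; 41 of them with array medians set to 0, 31 after quantile normalization and 21 without the dimmer probe sets), and 12 changed sign. Among medians beyond 0.3, removal of the dimmer probe sets moved those of GABA-A and glycine receptors from −0.78 to −0.38, thyroid hormone response from 0.31 to 1.25 and perineuronal matrix from −0.91 to −1.87, and quantile normalization moved that of neuronal remodelers from −0.41 to −0.61. Of those that changed sign, that of Purkinje cell transcription factors was 0.018 with medians set to 0, that of sodium channels 0.277 without the dimmer probe sets, and that of granule cells −0.158 after quantile normalization. That of DNA methylation genes was −0.101 without the dimmer probe sets, −0.066 with averaged probe sets, and −0.001 (without P0 replicate 2) to 0.124 with 1 array left out. The cell cycle median was 0.003 after quantile normalization, 0.033 with medians set to 0, 0.035 without the dimmer probe sets, and −0.063 to 0.024 with 1 array left out, above 0 without P0 replicate 3 (0.024), P7 replicate 2 (0.011) or P7 replicate 3 (0.002). Apart from the smaller number of probe sets tested, the cause was not tested. The number of arrays limits the precision, and signals under the lower quartile may be background.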

Other observations

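Cell division genes did not decline as a group in the first week. Of 42 genes 11 rose (26.2%), 9 fell (21.4%) and 22 were not called, and all changes lay between −0.99 and 1.30. Among all genes 34.2% rose and 27.4% fell, so both shares of this list were below those of all genes. The cyclins Ccne1 and Ccne2, which act at entry into DNA synthesis, rose by 0.99 (SE 0.06, adjusted p 1.03e-10) and 1.30 (SE 0.13, adjusted p 5.58e-08), and Ccnb2, a mitotic cyclin, fell by 0.99 (SE 0.09). From P7 to P15 the median change of the list was −1.10. Small nucleolar RNA genes, a set defined after values were seen, fell in 47 of 52 cases (median −1.12), and 33 of them were below the lower quartile on P7 arrays against 14 on P0 arrays. Like Xist, Meg3 and Rian they are known as nuclear RNAs, and whether this has a part in their falls was not tested.

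Chromatin genes moved in both directions, as did all genes, of which 34.2% rose and 27.4% fell. In the DNA methylation list 40% rose and 40% fell, in the Polycomb list 51.6% and 25.8%, and in the neuronal remodeler list 16% and 52%. Among 25 DNA methylation genes 10 rose and 10 fell: Gadd45g, a stress gene tied to demethylation, read 7.12, 7.04 and 6.76 at P0 and 9.21, 9.23 and 9.28 at P7, Mbd4, a repair glycosylase, rose by 1.72 (SE 0.15, adjusted p 1.27e-08), and the dioxygenase Tet2 fell by 1.60 (SE 0.09). The list median of 0.07 changed sign under other settings. Of 31 Polycomb genes 16 rose and 8 fell. Ezh2, the H3K27 methyltransferase, read 10.62, 10.61 and 10.63 at P0 and 9.75, 9.65 and 9.64 at P7, and Pcgf2 fell by 1.56 while its relative Pcgf1 rose by 1.35. Of 25 subunits of neuronal remodelers 13 fell, led by Chd5 (−1.67) and Arid1a (−1.19), and 4 rose: Smarcd2 (1.09), Ss18 (0.38), Smarcd3 (0.24) and Chd3 (0.21).

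Of 24 activity-regulated genes 12 rose and 7 fell (median 0.22), with Ier5 at 1.13, Gadd45b at 1.31 and Sik1 at −1.63, and Egr1 was not called (−0.04). Of 28 growth factors and receptors 11 rose and 16 fell. Kitl, the Purkinje cell ligand of the Kit receptor on interneurons, read 9.77, 9.91 and 9.73 at P0 and 12.18, 12.18 and 12.16 at P7, and Shh, the Purkinje cell mitogen for granule cell progenitors, rose by 1.48 (SE 0.12, adjusted p 3.93e-09), a gene picked after its value was seen. Ptn and Erbb4 changed by −2.02 and −1.91.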
